A study of Mus musculus with 6 samples.

Results

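Cyclic AMP signaling genes were examined in cultured muscle stem cells (MuSCs), the PAX7-expressing cells that rebuild skeletal muscle. The 51 genes, of 18943 in the deposited table, were chosen by symbol alone: Adcy, Pde or Akap followed by a number, any Prkar symbol, and Prkaca, Prkacb, Creb1, Crem, Rapgef3 and Rapgef4. No measured value entered that choice, although the set was proposed with results of these data known. They comprised 9 adenylyl cyclases, 17 cyclic nucleotide phosphodiesterases (PDEs), 3 proteins of other function that carry a Pde symbol, 4 regulatory and 2 catalytic subunits of protein kinase A (PKA), 12 A-kinase anchoring proteins (AKAPs), the CREB factors Creb1 and Crem, and the Epac genes Rapgef3 and Rapgef4.

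RNA was sequenced from FACS-purified MuSCs of 8-week-old wild-type C57BL/6 mice after 5 days of culture with DMSO as solvent control, with 100 nM endothelin-3 (ET-3) or with 100 nM neurotensin (NT), both peptide ligands of G-protein-coupled receptors. All groups thus shared strain, genotype, age, sorting and culture, and each was sequenced as 2 libraries. The labels do not say how many mice or separate cultures stand behind them, and the study describes another number of biological samples per group, so that p-values measure the spread between these libraries, which may be technical. The comparisons ask how expression of this pathway differed between ligand-treated and solvent-treated MuSCs, and between the ligands.

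Hormone receptors that couple to the stimulatory G protein switch on adenylyl cyclases in the plasma membrane, which make cyclic AMP, and PDEs break it down again. Cyclic AMP binds the regulatory subunits of PKA and sets the catalytic subunits free, AKAPs tether the holoenzyme to defined places in the cell, and Epac proteins are effectors that do not need PKA. In the nucleus PKA phosphorylates CREB, which sits on a short DNA element in its target promoters, and in MuSCs the calcitonin receptor acts through this pathway in the maintenance of quiescence.

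The deposited values summed to 4214458 to 4600575 per library and are read counts multiplied by a factor for each library and rounded. They trace back to about 3629296 to 5396581 reads on genes, so that a value of 100 carries a counting error of 8.84% to 10.9%. The ET-3 libraries, and likewise the NT libraries, differed from each other by no more than sampling noise (chi-square per gene of 0.895 and 0.961), whereas the DMSO libraries differed by more (1.45 over all genes and 2.71 over the 43 genes tested here). The last of these is a mean that includes Akap12, at 810 and 541 in the DMSO libraries. The counts below take every library as a sample, and those with each treated pair counted as 1 sample stand beside them. Satellite cell markers were present in all libraries, at summed values of 7601 to 8186 in DMSO, 7834 to 8149 under ET-3 and 7009 to 7217 under NT, with members that moved apart: 4 were higher and 2 lower at the adjusted p under ET-3, and 4 higher and 4 lower under NT. Pax7 rose from 857 and 1070 in DMSO to 1599 to 1754 in the treated libraries and Cd34 from 5 and 1 to 264 to 330, whereas Cdh15 fell from 1547 and 1746 to 436 to 496. Calcr, the calcitonin receptor gene, stood at 0 to 3 throughout. The 8 markers of differentiating myocytes, by contrast, summed to 14457 to 16007 in DMSO, 408 to 450 under ET-3 and 310 to 411 under NT, and all 8 were lower under both ligands, with Ckm and Myh8 at 0 in both ET-3 libraries. Among other cell types, the 6 smooth muscle and pericyte markers summed to 1810 to 1877 in DMSO and 447 to 525 with either ligand. Of that fall Abcc9, at 851 and 835 in DMSO and 0 to 4 in the treated libraries, made up the largest part. Rgs5, Pdgfrb and Cspg4 were also lower at the adjusted p under both ligands, and Kcnj8 and Myh11 stood at 0 to 4 throughout. The 4 fibroadipogenic markers summed to 204 to 211 and 70 to 97, a fall that Col1a1 carried: without it they summed to 56 to 65 and 63 to 89, and Ly6a was higher under both ligands and Pdgfra under NT at the adjusted p. The 5 endothelial markers summed to 62 to 64 and 98 to 128, a rise of the sum that Tek carried: without it they summed to 60 to 63 and 50 to 63. Of the 4 tested, Tek and Kdr were called higher under both ligands and Pecam1 under NT, whereas Vwf was called lower under both. The macrophage and Schwann cell markers summed to 17 to 45 in every library. In such bulk RNA, fewer cells of a type and less RNA per cell cannot be told apart, and the part of these shifts in cell state in the results below was not tested.

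Of the 51 genes, 43 had a mean value of at least 5 and entered the test (limma on log2(value + 1), with Benjamini-Hochberg adjustment over 13921 genes). With ET-3, 6 of them rose and 7 fell by at least 2-fold at an adjusted p of 0.05, while 6.62% of all tested genes rose and 14.9% fell by that rule. With NT, 8 rose and 5 fell, against 7.3% and 13.2% of all tested genes. Pde1a, at 5 and 1 in DMSO, is counted as risen under both ligands, but it passed the filter only through its treated libraries. Akap5, at 3 and 2 in DMSO and 5 and 2 under ET-3, is counted under NT and passed only through its NT libraries. Without the fold threshold, 14 were higher and 18 lower under ET-3 (30.6% and 33.2% of all tested genes), and 17 were higher and 15 lower under NT (29.7% and 32.5%). Counting each treated pair as 1 sample left 3 higher and 4 lower under ET-3 (3.33% and 11.9% of all tested genes) and 3 higher and 3 lower under NT (3.4% and 10.4%). Adcy3, Pde3b, Pde10a, Adcy2, Akap13 and Akap6 were called under both ligands in that count too, and Adcy1 under ET-3. Among genes past the adjusted p, Adcy9, Akap1, Akap12, Creb1, Pde1a, Pde1c, Pde3a, Pde4b, Pde5a, Pde8a, Prkar1a and Prkar2a no longer passed it under either ligand when pairs were so counted, nor did Akap7, Pde4a and Prkacb under ET-3 and Akap5, Akap8, Akap10, Pde1b, Pde4d and Pde7b under NT. The median log2 fold change of the 43 genes was -0.14 under ET-3 and -0.088 under NT, beside -0.0099 and -0.014 over all tested genes.

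**Figure D1:**
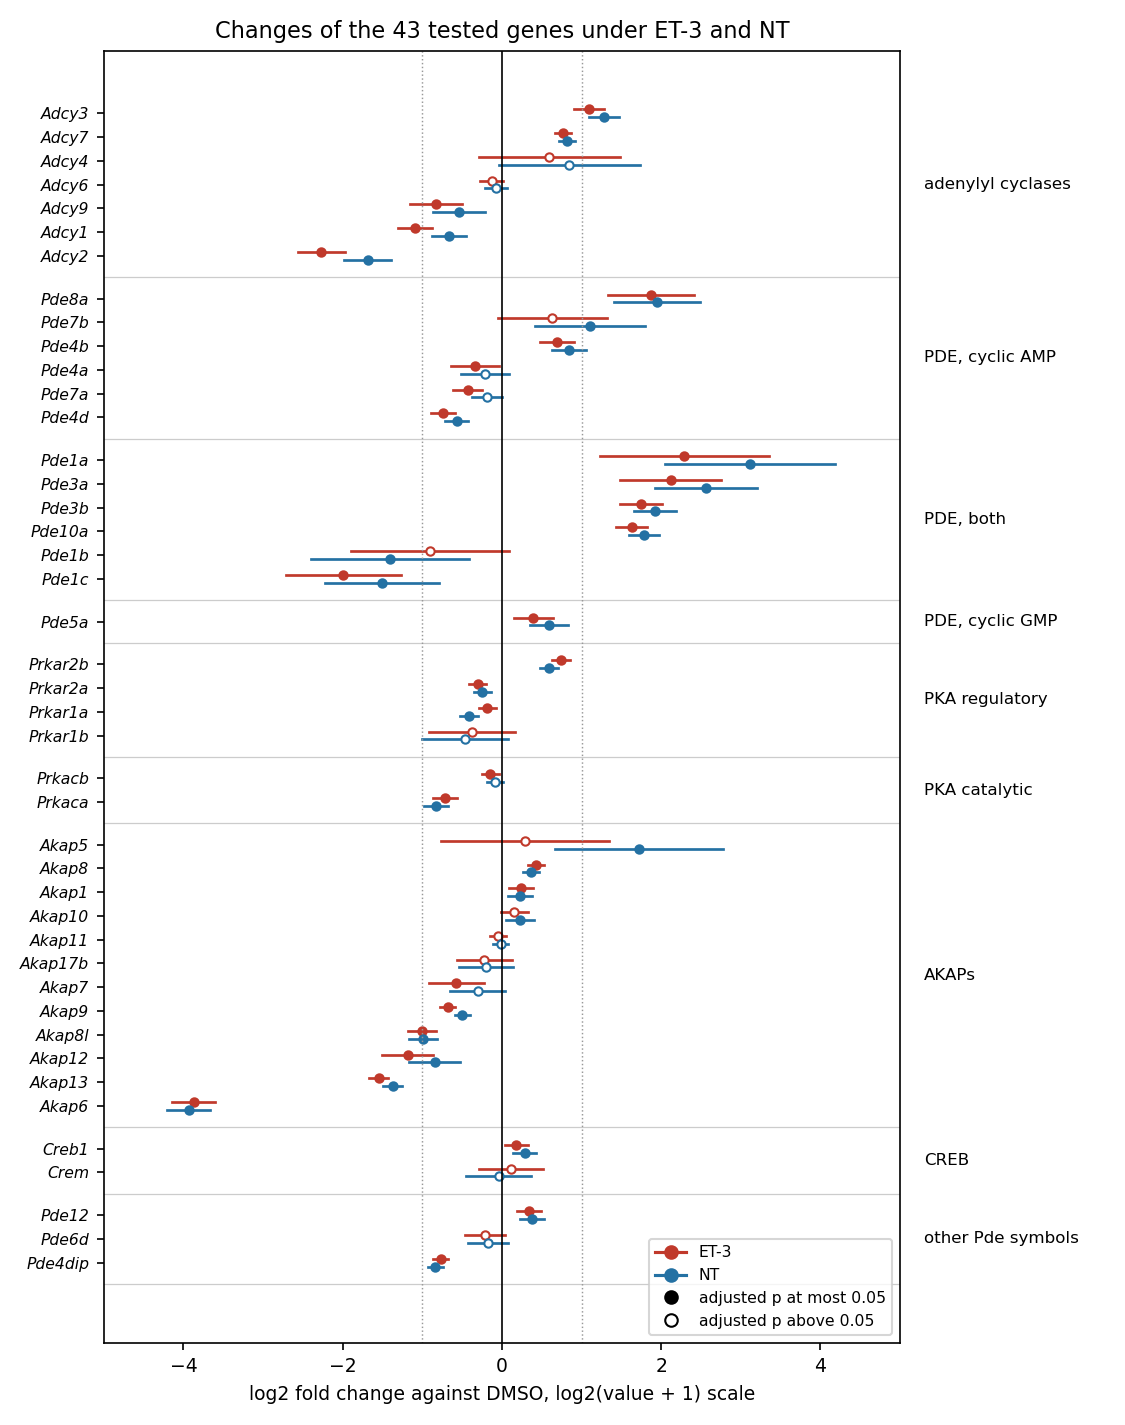
Log2 fold change against DMSO (horizontal axis, log2(value + 1) scale) of the 43 tested genes, grouped by role on the vertical axis, for ET-3 (red) and NT (blue). Lines are 95% confidence intervals of the limma fit, filled points have an adjusted p of at most 0.05, and dotted lines mark a 2-fold change: Akap6 lies farthest to the left under both ligands, at -3.87 and -3.93, and PDE genes make up most of the points beyond the dotted line on the right.

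Among the cyclases, Adcy7 and Adcy3 were higher and Adcy1, Adcy2 and Adcy9 lower under both ligands, and Adcy4 and Adcy6 did not pass the test. These are 2 higher and 3 lower of 7 tested at the adjusted p. The shares of all tested genes were 30.6% and 33.2% under ET-3 and 29.7% and 32.5% under NT. Adcy7, a cyclase that responds to the beta and gamma subunits of G proteins, was the most abundant member per kilobase of exon in every library. Its values were 612 and 621 for DMSO, 1045 and 1052 for ET-3 and 1070 and 1107 for NT. The treated libraries did not overlap with the DMSO libraries, and the log2 fold changes (± SE) were 0.77 ± 0.043 for ET-3 and 0.82 ± 0.043 for NT, below the 2-fold limit. Adcy3, the cyclase of primary cilia and olfactory neurons, rose by more than 2-fold. It was listed at 110 and 124 for DMSO, 242 and 258 for ET-3 and 285 and 286 for NT, with log2 fold changes of 1.09 ± 0.085 for ET-3 and 1.28 ± 0.085 for NT (limma, Benjamini-Hochberg adjusted p = 2.21e-06 and 7.62e-07). Of the exonic bases of Adcy3, 22.1% are shared with Cenpo on the opposite strand, and whether reads were counted by strand is not given in the sources used here.

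Adcy2, a relative of Adcy7 that is likewise conditionally stimulated by beta and gamma subunits, fell most of all cyclases. Values of 218 and 205 for DMSO, 43 and 43 for ET-3 and 68 and 62 for NT were listed, and both treated pairs lay far below the DMSO pair. The log2 fold changes were -2.27 ± 0.13 for ET-3 and -1.69 ± 0.13 for NT (limma, Benjamini-Hochberg adjusted p = 2.76e-07 and 2.37e-06). Adcy1, which calcium and calmodulin stimulate, was listed at 370 and 388 for DMSO, 160 and 197 for ET-3 and 237 and 242 for NT. All 4 treated libraries lay below both DMSO libraries, but the fall passed 2-fold only under ET-3 (-1.09 ± 0.095, against -0.66 ± 0.095 under NT). Without the first ET-3 library that call was lost. Adcy9, a cyclase that forskolin hardly stimulates, fell by less, with values of 115 and 100 for DMSO, 58 and 62 for ET-3 and 70 and 77 for NT, and its NT result did not pass the adjusted p without the first DMSO or the first NT library.

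For Adcy6, which calcium and the inhibitory G protein restrain, values of 481 and 525 for DMSO, 441 and 481 for ET-3 and 487 and 468 for NT overlapped between the groups. The 95% confidence intervals of its log2 fold change were -0.27 to 0.018 under ET-3 and -0.22 to 0.07 under NT. Adcy4 was listed at 6 to 16, and Adcy5 and Adcy8 at 0 to 6, under the limit for testing. Within the family, levels per kilobase are given without a test. The 9 cyclases together summed to 285 and 290 in DMSO, 295 and 310 under ET-3, and 327 and 332 under NT. Adcy7 made up 31.9% and 31.8% of that sum in DMSO, 52.6% and 50.5% under ET-3 and 48.5% and 49.6% under NT. Adcy2 took the opposite course, with a share of 18.1% and 16.8% in DMSO, 3.46% and 3.30% under ET-3 and 4.93% and 4.44% under NT. Adcy3 accounted for 6.17% and 6.84% in DMSO and for 13.1% to 13.9% in the treated libraries.

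**Figure D2:**
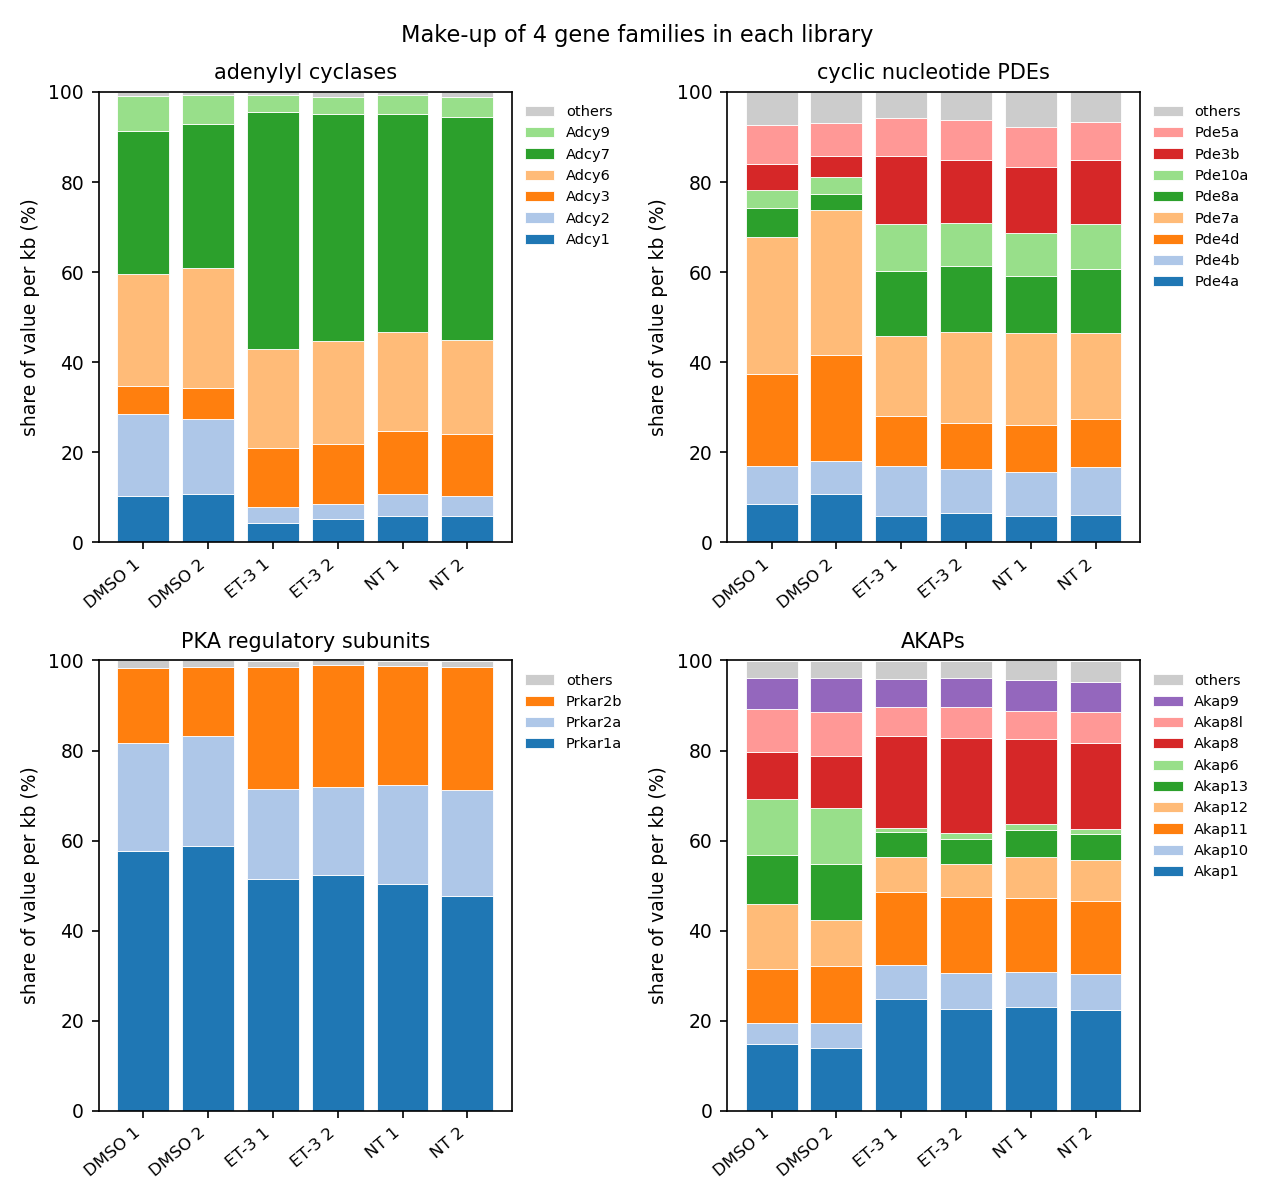
Share of each gene (vertical axis, % of the family's summed value per kilobase of exon) in the cyclases, cyclic nucleotide PDEs, PKA regulatory subunits and AKAPs, one bar for each of the 6 libraries; genes that stay under 3% in all libraries are summed as others. Adcy7 grew from about 32% to 48.5% or more, and the Akap6 band of 12.5% in DMSO shrank to 1.34% or less.

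PDEs accounted for most of the called increases. Of the 13 cyclic nucleotide PDEs tested, 7 were higher and 4 lower at the adjusted p under ET-3 (30.6% and 33.2% of all tested genes). Under NT, 8 were higher and 3 lower (29.7% and 32.5%). The median log2 fold changes were 0.63 and 0.84. Of the 6 that accept both cyclic AMP and cyclic GMP, 4 were called higher under each ligand, and of the 6 specific for cyclic AMP, 1 was called higher under ET-3 and 2 under NT. Pde1a is 1 of those 4, and it passed the filter only through its treated libraries. Of all tested genes, 6.62% were called higher under ET-3 and 7.3% under NT. With each treated pair counted as 1 sample, Pde3b and Pde10a were the 2 PDEs still called under each ligand, and 0 of those specific for cyclic AMP were.

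The Pde3 enzymes, whose breakdown of cyclic AMP is inhibited by cyclic GMP, both rose. Pde3b, through which insulin lowers cyclic AMP in fat cells, was listed at 93 and 71 for DMSO, 278 and 271 for ET-3 and 318 and 304 for NT. Every treated value was more than 2-fold above every DMSO value, and the log2 fold changes were 1.74 ± 0.12 for ET-3 and 1.92 ± 0.12 for NT (limma, Benjamini-Hochberg adjusted p = 7.34e-07 and 4.02e-07). Pde3a, its relative in heart and platelets, was much lower in level, at 7 and 13 for DMSO, 43 and 47 for ET-3 and 59 and 64 for NT. The groups did not overlap, and the fitted changes were 2.12 ± 0.29 for ET-3 and 2.56 ± 0.29 for NT, a fit that rests on DMSO values of 7 and 13.

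Pde10a, a dual-substrate enzyme best known from the striatum, was listed at 91 and 81 for DMSO, 272 and 264 for ET-3 and 293 and 304 for NT. Its log2 fold changes were 1.63 ± 0.086 for ET-3 and 1.79 ± 0.086 for NT (limma, Benjamini-Hochberg adjusted p = 1.43e-07 and 8.49e-08), and no treated value came near the DMSO values. Pde8a, a high-affinity enzyme specific for cyclic AMP, rose as well, with values of 45 and 24 for DMSO, 119 and 128 for ET-3 and 124 and 136 for NT. Its DMSO libraries differed nearly 2-fold from each other, and the changes of 1.88 ± 0.24 for ET-3 and 1.95 ± 0.24 for NT carry wider errors than those of Pde10a.

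The calcium- and calmodulin-activated Pde1 genes went in different directions at low levels. Pde1a was higher, with values of 5 and 1 for DMSO, 15 and 17 for ET-3 and 29 and 29 for NT, and its fitted fold change depends on the pseudocount because the second DMSO library holds a value of 1. Pde1c was lower, with values of 71 and 42 for DMSO, 13 and 13 for ET-3 and 15 and 23 for NT (log2 fold changes of -1.99 ± 0.32 for ET-3 and -1.51 ± 0.32 for NT). Pde1b was listed at 27 and 23 for DMSO, 11 and 15 for ET-3 and 15 and 5 for NT, and was called lower under NT, a call that was lost on leaving out any 1 of 5 of the 6 libraries. The NT call of Pde1c was lost without the first DMSO library.

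**Figure D3:**
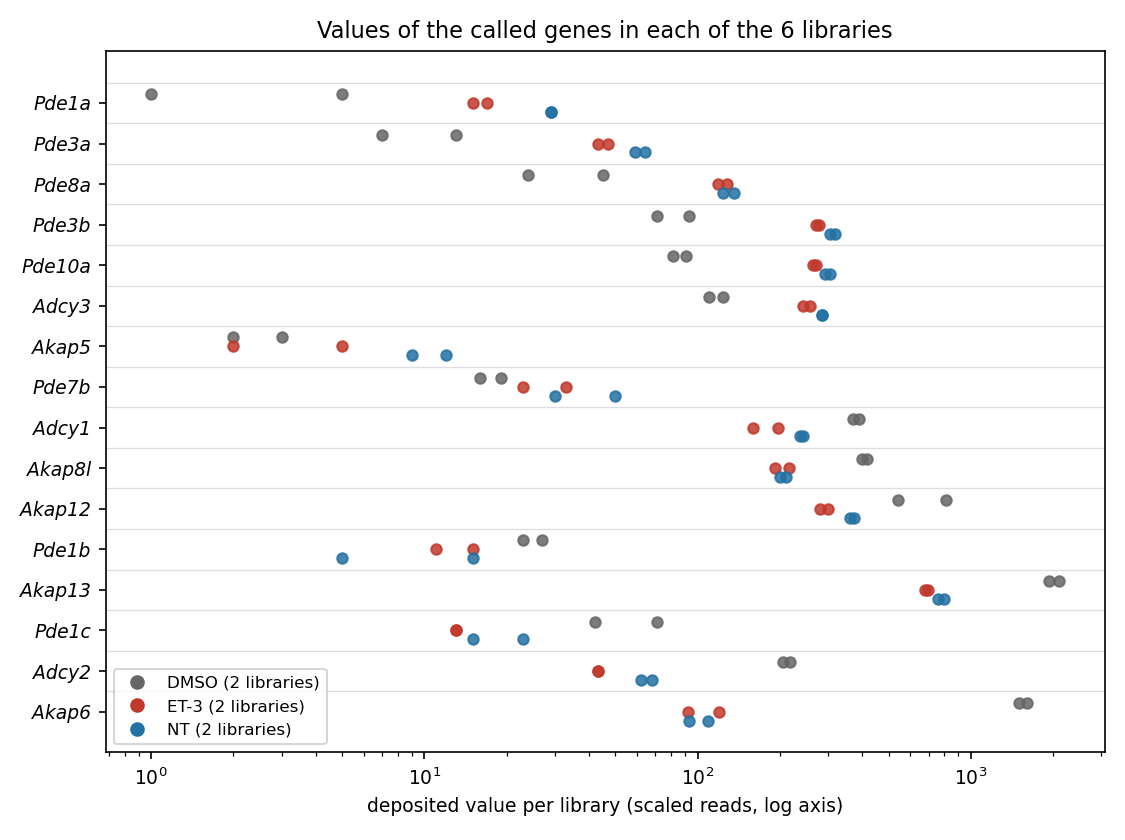
Deposited value in each of the 6 libraries (horizontal log axis, scaled reads) of the 16 genes called under at least 1 ligand, ordered on the vertical axis by their mean change, DMSO in grey, ET-3 in red and NT in blue. The treated points of Akap6 lie between 92 and 120, more than 10-fold below its DMSO points, and those of Pde3b and Pde10a between 264 and 318, above their DMSO points.

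In the cyclic AMP-specific Pde4 family, the targets of rolipram, the members diverged. Pde4d fell, with values of 426 and 471 for DMSO, 272 and 263 for ET-3 and 302 and 301 for NT. The log2 fold changes were -0.74 ± 0.066 for ET-3 and -0.57 ± 0.066 for NT. Pde4b rose, with values of 153 and 131 for DMSO, 237 and 222 for ET-3 and 246 and 264 for NT. The changes were 0.69 ± 0.094 for ET-3 and 0.84 ± 0.094 for NT. In both genes the DMSO libraries lay outside the range of the treated ones. Pde4a was listed at 91 to 137 in all libraries and passed the adjusted p only just under ET-3 (0.0487; 0.188 under NT), and Pde4c was listed at 0 to 5. Pde7a, a cyclic AMP-specific enzyme insensitive to rolipram, was the most abundant PDE per kilobase, and fell under ET-3 by 0.43 ± 0.083 on the log2 scale, with values of 410 and 416 for DMSO, 281 and 334 for ET-3 and 378 and 349 for NT, a result lost without either DMSO library. Pde7b was listed at 16 and 19 for DMSO, 23 and 33 for ET-3 and 50 and 30 for NT, and was called higher under NT (1.11 ± 0.31), a call that was lost without either DMSO library or without the first NT library.

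Read per kilobase, the Pde4 genes made up 37.6% and 42.1% of all PDE values in DMSO and 26.1% to 28.0% in the treated libraries. The Pde3 genes made up 6.19% and 5.27% in DMSO and 15.6% to 16.7% with either ligand. The PDE sum was 174 and 167 per kilobase in DMSO, 203 and 214 under ET-3, and 239 and 236 under NT. Of the PDEs specific for cyclic GMP, Pde5a, the target of sildenafil, was listed at 148 and 123 for DMSO, 169 and 187 for ET-3 and 210 and 198 for NT, and was higher at the adjusted p under both ligands, though under ET-3 not without the second DMSO or the second ET-3 library. Pde6g, Pde6h and Pde9a stayed at 0 to 3.

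A further 3 genes carry a Pde symbol without being cyclic nucleotide PDEs. Pde4dip, or myomegalin, is a centrosome and Golgi protein that anchors Pde4d, and it was listed at 3231 and 3331 for DMSO, 1910 and 1937 for ET-3 and 1806 and 1867 for NT. It was lower under both ligands, with log2 fold changes of -0.77 ± 0.041 for ET-3 and -0.84 ± 0.041 for NT. Pde12, a mitochondrial enzyme that trims poly(A) tails, was higher at the adjusted p (0.34 ± 0.067 for ET-3 and 0.38 ± 0.067 for NT), and Pde6d, a chaperone of prenylated proteins, did not pass the test.

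The sequence before the Pde8a start is shown because Pde8a rose most among the genes called under both ligands that have a listed promoter with a single start (RefSeq promoters, GRCm38.p6). Pde3a and Pde3b have no entry in that table. The 250 bases before the RefSeq start, which lies upstream of the GENCODE gene, hold TGACG, the core of the cyclic AMP response element that CREB binds, shown in capitals. Of all listed promoters, 20.8% hold this core on either strand, from 250 bases before to 50 after the start. A match describes the letters and says nothing of binding.
Pde8a, chr7:81213015-81213264, plus strand: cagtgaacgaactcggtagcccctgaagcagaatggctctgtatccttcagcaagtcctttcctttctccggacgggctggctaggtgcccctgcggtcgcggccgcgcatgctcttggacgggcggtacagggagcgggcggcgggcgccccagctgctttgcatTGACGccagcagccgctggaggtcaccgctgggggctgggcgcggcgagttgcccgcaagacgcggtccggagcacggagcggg

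None of the 6 PKA subunits passed the 2-fold limit. Of all tested genes, 6.62% were called higher and 14.9% lower under ET-3, and 7.3% and 13.2% under NT. At the adjusted p, 1 was higher and 4 lower under ET-3 (30.6% and 33.2% of all tested genes). Under NT, 1 was higher and 3 lower (29.7% and 32.5%). Among the regulatory subunits, Prkar2b of the type II holoenzyme, common in neurons and fat, rose, Prkar1a and Prkar2a fell slightly, and Prkar1b did not pass the test. For Prkar2b, values of 377 and 359 for DMSO, 620 and 613 for ET-3 and 546 and 562 for NT were listed. The treated libraries lay above the DMSO libraries without overlap, with log2 fold changes of 0.74 ± 0.051 for ET-3 and 0.59 ± 0.051 for NT (limma, Benjamini-Hochberg adjusted p = 9.25e-07 and 5.10e-06). Prkar2a, its widely expressed relative, was lower in all treated libraries, at 948 and 996 for DMSO, 795 and 780 for ET-3 and 800 and 837 for NT, with changes of -0.30 ± 0.048 for ET-3 and -0.25 ± 0.048 for NT.

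Prkar1a, the widely expressed type I subunit that keeps catalytic subunits inactive, was listed at 1540 and 1635 for DMSO, 1394 and 1405 for ET-3 and 1229 and 1156 for NT. The log2 fold changes were -0.18 ± 0.048 for ET-3 and -0.41 ± 0.048 for NT, and the ET-3 result did not pass the adjusted p with scaling to the library total, without the second DMSO library or without either ET-3 library. Prkar1b, the type I form of neurons, was listed at 38 and 37 for DMSO, 33 and 25 for ET-3 and 24 and 30 for NT, where the confidence intervals ran from -0.91 to 0.17 under ET-3 and from -1.01 to 0.074 under NT. Of the regulatory sum per kilobase, type II subunits made up 40.7% and 39.6% in DMSO, 47.1% and 46.7% under ET-3, and 48.6% and 50.9% under NT. Prkar2b alone went from 16.7% and 15.3% to between 26.4% and 27.5%.

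Prkaca, the main catalytic subunit of most tissues, fell, with values of 1127 and 1221 for DMSO, 702 and 731 for ET-3 and 707 and 620 for NT. The changes on the log2 scale were -0.71 ± 0.067 for ET-3 and -0.82 ± 0.067 for NT (limma, Benjamini-Hochberg adjusted p = 8.12e-06 and 3.01e-06). Prkacb, the catalytic subunit enriched in brain, changed by less, with values of 614 and 613 for DMSO, 554 and 556 for ET-3 and 582 and 572 for NT. It was lower at the adjusted p under ET-3, a result lost with scaling to the library total or without either ET-3 library, and under NT the 95% confidence interval ran from -0.19 to 0.015. Per kilobase, the 2 catalytic genes summed to 523 and 561 in DMSO, 345 and 357 under ET-3, and 351 and 314 under NT. The ratio of regulatory to catalytic values was 1.18 and 1.15 in DMSO, 1.81 and 1.74 under ET-3, and 1.61 and 1.78 under NT, without overlap between DMSO and treated libraries.

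The genes of the PKA inhibitor peptides, which bind free catalytic subunits, were lower too. Of 3 listed, Pkia and Pkig were tested and both fell at the adjusted p under both ligands, whereas Pkib was not analysed here. Pkia, the form abundant in muscle, was listed at 1021 and 1047 for DMSO, 316 and 380 for ET-3 and 368 and 351 for NT, with log2 fold changes of -1.57 ± 0.079 for ET-3 and -1.52 ± 0.079 for NT. Pkig, the more widely expressed form, was listed at 844 and 907 for DMSO, 655 and 635 for ET-3 and 593 and 544 for NT (-0.44 ± 0.058 for ET-3 and -0.62 ± 0.058 for NT). These falls, like that of Prkaca, went along with the lower myocyte markers, and the part of cell state in them was not tested.

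The promoters of the PKA subunits are shown because 5 of the 6 genes hold the core element TGACG in the listed windows, from 250 bases before to 50 after a start. Counted by gene, 23% of all 27025 genes with a listed promoter hold it, and a gene with more windows has more room for a match. Counted by promoter, 7 of the 19 listed windows of the PKA subunits hold it, and those of Prkar2b hold none. Over all 32851 RefSeq promoters (GRCm38.p6), 20.8% hold the core element, TGACG or its reverse complement CGTCA, and 1.79% the full palindrome TGACGTCA, which contains the core element on both strands. Of the 51 genes, 42 were matched to 76 promoters, of which 17, or 22.4%, hold the core element. The full palindrome lay in 2 of the 76, both of Prkar1a, whose listed starts share the element. In the 30-base windows below, 5′ to 3′ on the gene's strand, capitals mark the full palindrome or else the core element nearest to the start. Relative to the listed start, the marked letters begin at -49 in Prkar1a and Prkar1b, -4 in Prkar2a, -6 in Prkaca and -102 in Prkacb. A match describes these letters and says nothing of binding.
Prkar1a, chr11:109650889-109650918, plus strand: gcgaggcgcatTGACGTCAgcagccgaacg
Prkar1b, chr5:139150033-139150062, minus strand: tagagggcggagTGACGggcaggaggacga
Prkar2a, chr9:108692127-108692156, plus strand: cgcggccgcgtgCGTCAcaacccgggcgcc
Prkaca, chr8:83972960-83972989, plus strand: gggctgcgggggCGTCAcggacagaggact
Prkacb, chr3:146813031-146813060, minus strand: ggggcttgaccgCGTCActtccggcgcgcc

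All 12 AKAPs passed the filter. At the adjusted p, 2 were higher and 6 lower under ET-3 (30.6% and 33.2% of all tested genes). Under NT, 4 were higher and 5 lower (29.7% and 32.5%). The median log2 fold changes were -0.40 and -0.25. Akap6, also named mAKAP, holds PKA and Pde4d at the nuclear envelope of muscle cells and changed most of the 43 genes. Its values were 1598 and 1504 for DMSO, 92 and 120 for ET-3 and 109 and 93 for NT. The lowest DMSO value was more than 10 times the highest treated value, and the log2 fold changes were -3.87 ± 0.12 for ET-3 and -3.93 ± 0.12 for NT (limma, Benjamini-Hochberg adjusted p = 4.63e-09 and 4.89e-09). Akap6 made up 12.5% of the AKAP sum per kilobase in both DMSO libraries and 1.01% to 1.34% in the treated ones. As a gene of differentiated muscle it moved with the 8 myocyte markers, and their part in its fall was not tested.

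The sequence before the Akap6 start (RefSeq, GRCm38.p6) is shown because Akap6 fell most of the genes called under both ligands. These 250 bases hold neither the full palindrome nor the core element, which says only that those letters are not in this window.
Akap6, chr12:52699133-52699382, plus strand: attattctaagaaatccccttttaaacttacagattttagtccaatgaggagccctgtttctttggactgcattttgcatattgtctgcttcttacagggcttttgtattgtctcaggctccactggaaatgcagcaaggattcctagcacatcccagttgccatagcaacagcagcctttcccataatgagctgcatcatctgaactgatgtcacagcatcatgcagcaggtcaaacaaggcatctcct

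Akap13, or AKAP-Lbc, joins a PKA anchor to an exchange factor for RhoA that Gα12 activates. It was listed at 1929 and 2106 for DMSO, 680 and 698 for ET-3 and 796 and 759 for NT, and both treated pairs lay far below DMSO. The log2 fold changes were -1.55 ± 0.053 for ET-3 and -1.37 ± 0.053 for NT (limma, Benjamini-Hochberg adjusted p = 7.80e-09 and 1.89e-08). Akap12, or gravin, a scaffold of PKA and protein kinase C at the plasma membrane, was listed at 810 and 541 for DMSO, 301 and 281 for ET-3 and 374 and 362 for NT. Its DMSO libraries stood apart, and without the first of them the ET-3 call was lost, although all treated values lay below both. The log2 fold changes of Akap12 were -1.18 ± 0.14 for ET-3 and -0.85 ± 0.14 for NT.

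The nuclear anchors Akap8 and Akap8l, which are close relatives, moved in opposite directions. Akap8 rose by less than 2-fold, with values of 786 and 819 for DMSO, 1062 and 1104 for ET-3 and 1026 and 1035 for NT. The changes were 0.43 ± 0.045 for ET-3 and 0.36 ± 0.045 for NT. Akap8l fell, with values of 416 and 401 for DMSO, 192 and 216 for ET-3 and 200 and 211 for NT. The changes were -1.0005 ± 0.077 for ET-3 and -0.99 ± 0.077 for NT, which lie at the 2-fold limit, and its ET-3 call was lost with a pseudocount of 5, under other scalings, with voom, and without the first DMSO or the first ET-3 library. Akap9, a large anchor of the centrosome and Golgi, fell by less than 2-fold, with values of 1272 and 1315 for DMSO, 802 and 809 for ET-3 and 925 and 909 for NT.

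Akap1, which tethers PKA to the mitochondrial outer membrane, was among the most abundant anchors per kilobase and was higher at the adjusted p under both ligands by 0.24 ± 0.068 and 0.23 ± 0.068 on the log2 scale. Without the second DMSO library neither result passed, nor did that under ET-3 without the first ET-3 library or that under NT without either NT library. Akap11, a scaffold that also binds glycogen synthase kinase, was listed at 1071 to 1148 in all libraries, and its confidence intervals ran from -0.15 to 0.049 under ET-3 and from -0.12 to 0.082 under NT. Akap5, the postsynaptic anchor AKAP150, was near the floor, with values of 3 and 2 for DMSO, 5 and 2 for ET-3 and 9 and 12 for NT, and its NT call was lost without the second DMSO or the second NT library. Akap7, Akap10 and Akap17b completed the class, at 55 to 90, 252 to 320 and 60 to 75.

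Among 11 tested anchoring proteins without an Akap symbol, 1 was higher and 7 were lower at the adjusted p under ET-3 (30.6% and 33.2% of all tested genes). Under NT, 3 were higher and 6 lower (29.7% and 32.5%). Cmya5, or myospryn, a PKA anchor of the sarcomere, was listed at 450 and 390 for DMSO, 1 and 3 for ET-3 and 1 and 4 for NT. Cbfa2t3, a transcriptional corepressor that binds PKA, was listed at 168 and 160 for DMSO, 0 and 3 for ET-3 and 5 and 5 for NT, and the intermediate filament protein Synm at 27 and 25 for DMSO, 2 and 4 for ET-3 and 3 and 5 for NT. All of these were called lower under both ligands. Their treated values lie so near 0 that the size of the fitted changes depends on the pseudocount. Popdc2, a cyclic AMP-binding Popeye protein of striated muscle, was listed at 132 and 103 for DMSO, 25 and 27 for ET-3 and 23 and 28 for NT, and was the only 1 of 5 other cyclic AMP-binding genes tested to be called, lower under both ligands.

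Upstream of the cyclases, 7 G protein alpha subunits were tested. At the adjusted p, 1 was higher and 2 lower under ET-3 (30.6% and 33.2% of all tested genes). Under NT, 1 was higher and 3 lower (29.7% and 32.5%). Gnas, which encodes the stimulatory subunit, was listed at 2302 and 2474 for DMSO, 1736 and 1611 for ET-3 and 1373 and 1297 for NT, and was lower at the adjusted p (-0.51 ± 0.055 for ET-3 and -0.84 ± 0.055 for NT). Gnao1, of the inhibitory class and known from neurons, was the 1 gene of the list to be called, with values of 110 and 120 for DMSO, 282 and 283 for ET-3 and 262 and 266 for NT. The changes were 1.29 ± 0.078 for ET-3 and 1.19 ± 0.078 for NT. Gnai1, an inhibitory subunit, fell, with values of 585 and 611 for DMSO, 304 and 352 for ET-3 and 353 and 364 for NT. Its changes were -0.87 ± 0.072 for ET-3 and -0.74 ± 0.072 for NT, both past the adjusted p but below the 2-fold limit. Gnai2, likewise inhibitory, was lower at the adjusted p under NT only (-0.25 ± 0.059).

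**Figure D4:**
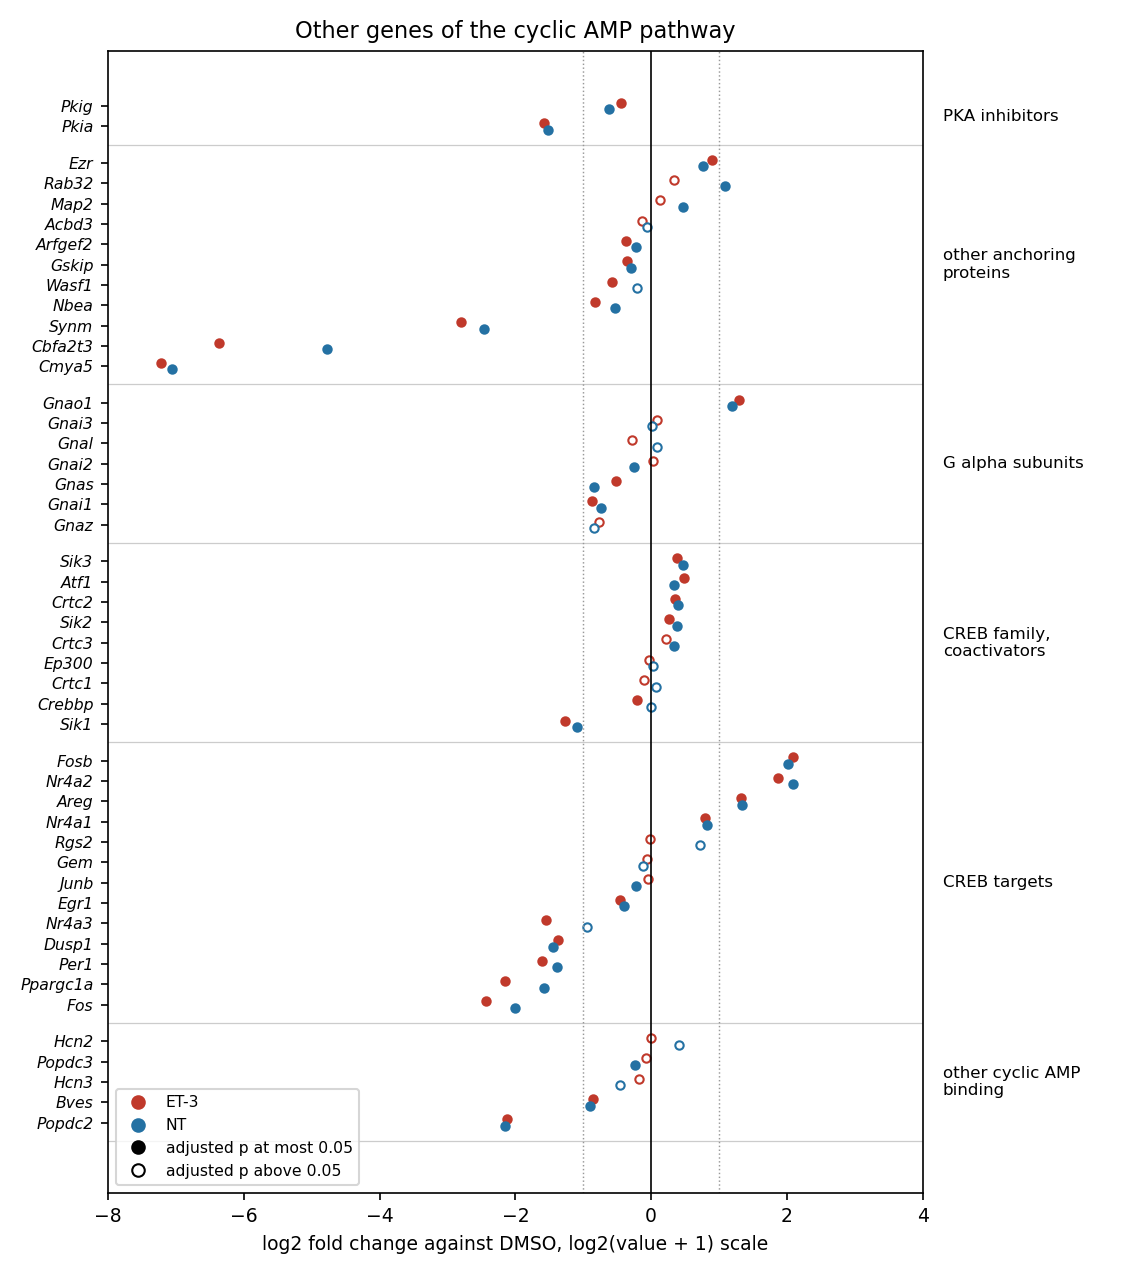
Log2 fold change against DMSO (horizontal axis, log2(value + 1) scale) of the other pathway genes tested, grouped by list on the vertical axis, for ET-3 (red) and NT (blue); filled points have an adjusted p of at most 0.05 and dotted lines mark a 2-fold change. CREB targets lie on both sides of 0, from -2.43 for Fos to 2.10 for Fosb under ET-3, and both PKA inhibitors lie to the left.

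The CREB factors changed little. Creb1 was listed at 560 and 511 for DMSO, 573 and 641 for ET-3 and 655 and 650 for NT, with log2 fold changes of 0.18 ± 0.066 for ET-3 and 0.29 ± 0.066 for NT. Both were higher at the adjusted p, but the ET-3 result was lost on leaving out either DMSO library, either NT library or the second ET-3 library, and in the fit of the 2 groups alone, and the NT result without the second DMSO library. For Crem, which also gives rise to the cyclic AMP-induced repressor ICER, values of 85 and 61 for DMSO, 81 and 75 for ET-3 and 74 and 66 for NT overlapped between all groups, and the confidence intervals ran from -0.29 to 0.52 under ET-3 and from -0.45 to 0.36 under NT. The Epac genes Rapgef3 and Rapgef4 were listed at 0 to 5 in every library and were not tested. Of 9 listed CREB relatives, coactivators and their kinases, 4 were higher and 2 lower at the adjusted p under ET-3 (30.6% and 33.2% of all tested genes). Under NT, 5 were higher and 1 lower (29.7% and 32.5%). Sik1, a kinase that CREB induces and that holds CREB coactivators in the cytoplasm, was the 1 gene of that list called, at 1192 and 1219 for DMSO, 519 and 482 for ET-3 and 573 and 555 for NT (-1.27 ± 0.051 for ET-3 and -1.09 ± 0.051 for NT).

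Immediate targets of CREB moved in both directions. Of 13 tested, 4 were higher and 6 lower under each ligand at the adjusted p. The shares of all tested genes were 30.6% and 33.2% under ET-3 and 29.7% and 32.5% under NT. The median log2 fold changes of the targets were -0.061 and -0.22. Fosb, an AP-1 subunit, rose, with values of 19 and 25 for DMSO, 99 and 94 for ET-3 and 86 and 97 for NT. Nr4a2, an orphan nuclear receptor, rose as well, with values of 66 and 38 for DMSO, 168 and 207 for ET-3 and 216 and 217 for NT, although with each treated pair counted as 1 sample it was not called under either ligand. Fos, the AP-1 subunit most used as a marker of recent stimulation, fell, with values of 195 and 231 for DMSO, 37 and 40 for ET-3 and 49 and 55 for NT. Ppargc1a, a coactivator of mitochondrial genes, fell too, with values of 70 and 62 for DMSO, 14 and 14 for ET-3 and 21 and 22 for NT. The log2 fold changes of these 4 genes under ET-3 were 2.10 ± 0.18, 1.87 ± 0.21, -2.43 ± 0.15 and -2.16 ± 0.23 in that order. With NT they were 2.02 ± 0.18, 2.09 ± 0.21, -2.01 ± 0.15 and -1.57 ± 0.23. Many of these targets also answer to other pathways.

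Of the 13 targets, 11 were matched to 12 listed promoters, and all 12 hold the core element, beside 20.8% of all promoters; they were listed because they are known CREB targets. The full palindrome lay in the promoters of Areg, an epidermal growth factor receptor ligand, and Dusp1, a phosphatase of mitogen-activated kinases, which moved in opposite directions and were picked for that after their values were seen. Areg was listed at 32 and 32 for DMSO, 80 and 83 for ET-3 and 78 and 87 for NT, and Dusp1 at 531 and 649 for DMSO, 219 and 234 for ET-3 and 227 and 205 for NT. Their log2 fold changes were 1.32 ± 0.16 for ET-3 and 1.34 ± 0.16 for NT for Areg, and -1.37 ± 0.096 for ET-3 and -1.44 ± 0.096 for NT for Dusp1. Egr1 and Gem have no listed promoter. The windows of targets that rose (Areg, Fosb, Nr4a2) and fell (Dusp1, Fos, Ppargc1a) are set side by side, with capitals as above. Relative to the listed start, these letters begin at -61 in Areg, -60 in Fosb, -111 in Nr4a2, -143 in Dusp1, -66 in Fos and -49 in Ppargc1a.
Areg, chr5:91139527-91139556, plus strand: gggctggtccgTGACGTCAcgggcggtggc
Fosb, chr7:19310088-19310117, minus strand: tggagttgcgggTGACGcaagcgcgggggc
Nr4a2, chr2:57124097-57124126, minus strand: tgacggggccgcTGACGcgcttggccgcgg
Dusp1, chr17:26508597-26508626, minus strand: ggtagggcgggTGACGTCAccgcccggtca
Fos, chr12:85473812-85473841, plus strand: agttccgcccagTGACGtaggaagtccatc
Ppargc1a, chr5:51567757-51567786, minus strand: ggtgccctcccaCGTCActgagctccagtg

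Set directly against each other, the ligands gave few differences: none of the 43 genes passed both the adjusted p and the 2-fold limit in the limma fit, and voom gave no call either. Of all 13921 tested genes only 11 passed both limits in the limma fit, so that the lack of calls is not particular to these 43. At the adjusted p alone, Adcy1 was higher under NT, by 0.43 ± 0.095 on the log2 scale (limma, Benjamini-Hochberg adjusted p = 0.0485), and Prkar1a lower, by -0.23 ± 0.048 (adjusted p = 0.0424). Over all tested genes, 0.647% were higher and 2.05% lower by that rule. For Akap6 the 95% confidence interval of the difference between the ligands ran from -0.33 to 0.21, for Pde3b from -0.082 to 0.44 and for Adcy2 from 0.29 to 0.88. The comparisons of ET-3 and of NT in DMSO share the same DMSO libraries, so that their changes are given side by side and not counted as agreement.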

How the data were processed

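MuSCs were cultured with DMSO, ET-3 or NT and sequenced as 2 libraries per group, which were assigned by their labels. Per the labels, total RNA went into SMART-Seq HT libraries, and the submitters' processing notes name Trimmomatic 0.38, STAR 2.7.7a, featureCounts 1.6.5, DESeq2 1.30.0 and mm10. The study's methods name other versions, another library kit, other ligand doses and another number of biological samples, and the labels are followed here. The deposited values are a signal of scaled read counts: the authors' whole numbers skip 26 to 49 values in 3 libraries, and 0 genes lie at them. The factor of each library, 0.781 to 1.19, was estimated from how often each small whole number occurs, also in the libraries that skip none.

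Values were taken as log2(value + 1) and fitted with limma 3.58.1 in R 4.3.3 over all 6 libraries and the 13921 genes averaging 5 or more per library, with trended variances and Benjamini-Hochberg adjustment; a call required an adjusted p of at most 0.05 and at least a 2-fold change. A planned count test was not used because the values are not raw counts; the reads recovered from the factors entered voom as an alternative. Levels between genes were compared per kilobase of GENCODE exon (51 of 51 genes matched by identifier). Of the 51 genes, those called under a ligand, all PKA subunits and effectors, and up to 4 others per class were named; of each list of other pathway genes, up to 4 called under both ligands. Areg, Dusp1, Gnas, Gnai1, Gnai2 and Pkig were named beyond this rule after their values were seen. The members and the gene lists were chosen with earlier results of these data known, and the promoter windows of PKA subunits and CREB targets were added after their values were seen. The fit was tested on simulated data. Alternatives covered pseudocounts 0.5 and 5, filters, scalings, voom, a replicate block, each treated pair counted as 1 sample, and leaving out each library.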

Additional observations from a re-analysis of the deposited data

Results flagged for a closer look

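Among the genes examined here and the other listed pathway genes, 4 differed between the ligands in the direct limma test (adjusted p of at most 0.05, Benjamini-Hochberg), where 0.647% of all tested genes were higher and 2.05% lower under NT, and no cause was tested. Adcy1 and Prkar1a came from the 43 genes tested, and Gnas and Gnai2 from the 7 G protein alpha subunits. The other pathway lists, with 2, 11, 9, 13 and 5 genes tested, gave none. Adcy1 was 0.43 higher on the log2 scale with NT than with ET-3, in 2 of 2 NT libraries against both ET-3 libraries. Prkar1a differed by -0.23, Gnas by -0.33 and Gnai2, an inhibitory G protein subunit, by -0.28, each lower in both NT libraries than in both ET-3 libraries. Adcy1, Prkar1a and Gnai2 kept this in 5 of 16 alternatives each and Gnas in 6 of 16, and all 4 lost it whenever a library was left out, in the fit of the 2 groups alone and with a replicate block.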

How the results depend on the processing

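With each treated pair counted as 1 sample, which leaves fewer samples, the genes called were 3 higher and 4 lower under ET-3 (3.33% and 11.9% of all tested genes) and 3 higher and 3 lower under NT (3.4% and 10.4%), and those at the adjusted p alone 7 and 10 under ET-3 and 6 and 8 under NT. For the counts at the adjusted p alone no share of all tested genes is given, so they cannot be compared with all tested genes. With every library as a sample and no fold threshold, 14 were higher and 18 lower under ET-3, and 17 and 15 under NT. For NT against ET-3 the counts were 1 and 1. Leaving out a library gave 6 to 6 higher and 5 to 7 lower calls under ET-3, and 6 to 8 higher and 3 to 6 lower calls under NT, the lowest without the first DMSO library, where Pde1b and Pde1c lost their calls. Signs turned for genes near 0: scaling to the library total, which shifted the median of all genes to 0.077 under ET-3 and 0.097 under NT, gave 0.038 (ET-3) and 0.096 (NT) for Akap11, and under NT 0.039 for Adcy6, 0.069 for Crem and 0.025 for Prkacb. Leaving out a library moved Crem from -0.12 (without the second DMSO library) to 0.35 (without the first) under ET-3, and from -0.28 (without the second DMSO library) to 0.19 (without the first) under NT, with 0.039 without the second NT library. Akap5 ran from -0.21 (without the first ET-3 library) to 0.79 (without the second) under ET-3. The cause was not tested. A replicate block left 13 of 13 calls with either ligand, 6 higher and 7 lower under ET-3 and 8 higher and 5 lower under NT; the numbers do not pair the samples, since replicate differences correlated at -0.0080, -0.070 and -0.022 between groups. Counting error limits genes with values under about 100.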
